A study of Mus musculus with 12 samples.

Results

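Mouse ES cells of the D3 line that had gone through 8 days of differentiation with the agent labelled BPA were compared with the undifferentiated starting cells. The members were all genes measured on the 3 arrays titled BPA day8 and the 3 arrays titled control day0, which are 6 of the 12 arrays in the series. The control day0 cells carry the cell type label ES cells D3 and the agent label none, and the BPA day8 cells are labelled as differentiated ES cells D3 with the agent BPA. All cultures were described as grown on MMC treated mouse embryonic fibroblasts and differentiated as embryoid bodies, floating aggregates in which ES cells form the early tissue layers. The labels do not spell out the agent or give its dose, and they do not state whether the arrays came from separate cultures. Each p-value therefore measures only a spread between arrays. That spread is pooled over all 12 arrays of the series, including those outside this comparison. Because time in differentiation, culture form and the agent all differ between the 2 groups, their parts in a change cannot be told apart here. The 3 control day8 arrays, differentiated for the same 8 days without BPA, are set beside the results where they bear on a gene.

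An embryoid body first forms an outer layer of endoderm. This layer resembles the visceral endoderm of the yolk sac, an absorptive epithelium that takes up protein by endocytosis and secretes serum proteins and lipoproteins, and the parietal endoderm, which lays down a thick basement membrane. Inside, the pluripotent cells pass through a primed epiblast state and give rise to mesoderm, from which beating heart muscle, endothelium and blood arise. Pluripotency itself rests on transcription factors such as Pou5f1, Nanog and Sox2. Fibroblast feeder layers contribute their own transcripts, largely collagens and other matrix genes, to RNA taken from the undifferentiated cultures.

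Across the genome the shift was large and leaned upwards. Among 13066 genes tested, 2840 rose (21.7%) and 1554 fell (11.9%) at an adjusted p under 0.05, and 33.6% changed in all. Of these, 1342 rose at least 2-fold (10.3%) and 357 fell at least 2-fold (2.73%), 13% in either direction. For 6450 genes, 49.4% of those tested, every array of one group lay above every array of the other, so such separation is common here. The median change of all genes was a log2 difference of 0.14. Changes are log2 differences between group means of the deposited MAS5 signals, given with their standard error. A background level, a log2 signal of 3.41, was taken from bacterial control probe sets. If a gene that passed was under it on each array of a group, the fold is a lower bound. Where only the group's mean was, the change is given as at least its size with low values set to that level. Genes that did not pass, such as Gata1, are given with their fitted change, which can rest on values under background. All 3 day 0 arrays lay under background for 155 of the genes that changed, and all 3 BPA arrays for 28.

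**Figure D1:**
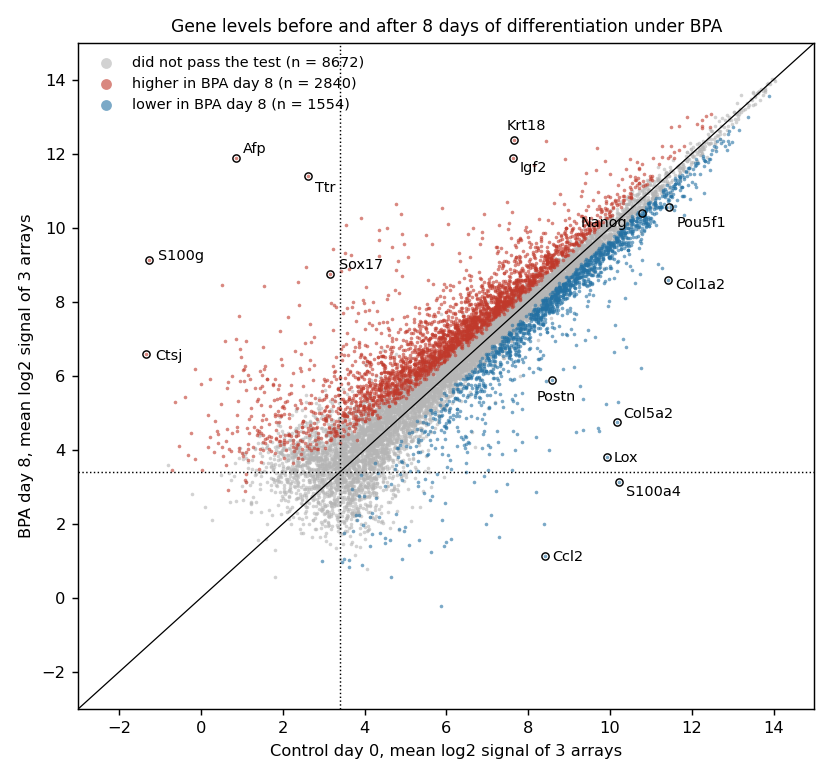
Mean log2 signal of each of 13066 genes on the 3 control day 0 arrays (horizontal axis) and the 3 BPA day 8 arrays (vertical axis). Red points rose (2840), blue points fell (1554) and grey points did not pass the test. The diagonal marks equal levels and the dotted lines the background level of 3.41. Afp, Ttr and S100g leave the background at the upper left, and Lox, Col5a2, S100a4 and Ccl2 fall towards it at the lower right.

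The strongest gains were the secreted proteins of the yolk sac. Of 24 listed serum proteins and apolipoproteins, 17 were tested, and 15 rose and 0 fell (all genes: 21.7% and 11.9%). Their median log2 change was 5.39, or 3.78 with bounds in place of values under background (all genes: 0.14). Afp, the main serum protein of the fetal yolk sac and liver, gave log2 signals of 2.87, 0.2 and -0.51 at day 0, all under background, and 11.45, 11.9 and 12.27 under BPA. Every BPA array was far above every day 0 array, and Afp rose at least 354-fold (adjusted p 1.48e-05). Ttr, a carrier of thyroid hormone and of the retinol-binding protein, read 2.83, 2.44 and 2.57 at day 0 and 11.1, 11.55 and 11.55 under BPA, a rise of at least 255-fold (adjusted p 2.31e-07). Its partner Rbp4, which carries retinol, moved from 4.61, 4.73 and 5.31 to 9.93, 10.46 and 10.75, a rise of 5.49 ± 0.28 (adjusted p 8.3e-06). The lipoprotein genes rose with them. Apob, the structural protein of secreted lipoproteins, rose by at least 5.76, and Mttp, which loads lipid onto it, rose by 3.78 ± 0.31 (adjusted p 4.31e-05). Apoa1, the main protein of HDL, rose by at least 4.99 and Apoa4 at least 11.5-fold. The apolipoprotein genes Apoa2, Apoc2 and Apom also rose, and Apoe, already well above background at day 0, rose by 1.77 ± 0.22 (adjusted p 0.000376). The clotting genes F2, which encodes prothrombin, and Fgb, a fibrinogen chain, rose as well, F2 by 2.98 ± 0.39 (adjusted p 0.000508) and Fgb at least 5.7-fold (adjusted p 0.00193). Serpinf2 (1.69 ± 0.69, adjusted p 0.0859) and Fga (0.91 ± 0.81, adjusted p 0.426) did not pass. Set against control day8, 0 of the 17 differed in either direction (background, over all genes: 12% higher and 10.2% lower), and Afp averaged 11.88 under BPA and 11.26 in control day8, a difference of 0.62 ± 0.72 (adjusted p 0.59).

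Promoter sequence is shown for 3 of these secreted-protein genes, because they moved together and share a short element in the 250 bases before the start. HNF1 factors, which act in yolk sac and liver, bind a site built around the half-site GTTAAT. That 6-letter string, on either strand, was found in the 250 bases upstream of 3 of the 14 risen members with a promoter entry (Afp, Fgb and Apoc2), and in 6.52% of 27025 promoters of the same length, taking the first listed start of each gene. The string TATAAA was found in 3 of the 14 (Apoa2, Afp and Apob) and in 12.97% of all promoters. AGATAA, only a single form of the site of GATA factors, was found in 0 of the 14 and in 10.25% of all. Other forms, such as the TGATAA present in the Fgb and Apoc2 sequences below, were not counted. Ttr had no entry. The strings and genes were picked by searching these promoters, and a match is a description only. The sequences are RefSeq's for GRCm38.p6, written 5′ to 3′ on the strand of the gene, with GTTAAT, its complement ATTAAC and TATAAA in capitals. The shown elements do not overlap each other. Position -1 is the base before the start.
Afp, chr5:90490464-90490713, plus strand, half-site from -105 to -100: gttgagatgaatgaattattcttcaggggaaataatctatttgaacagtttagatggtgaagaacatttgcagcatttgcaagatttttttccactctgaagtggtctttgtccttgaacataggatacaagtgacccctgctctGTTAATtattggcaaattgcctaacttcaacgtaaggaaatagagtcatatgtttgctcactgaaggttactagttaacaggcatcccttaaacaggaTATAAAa
Fgb, chr3:83049864-83050113, minus strand, half-site from -29 to -24: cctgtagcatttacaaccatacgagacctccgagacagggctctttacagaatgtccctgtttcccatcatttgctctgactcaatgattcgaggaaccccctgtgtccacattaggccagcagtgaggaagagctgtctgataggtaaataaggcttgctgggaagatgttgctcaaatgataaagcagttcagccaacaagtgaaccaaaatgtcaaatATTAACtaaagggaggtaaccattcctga
Apoc2, chr7:19677942-19678191, minus strand, half-site from -89 to -84: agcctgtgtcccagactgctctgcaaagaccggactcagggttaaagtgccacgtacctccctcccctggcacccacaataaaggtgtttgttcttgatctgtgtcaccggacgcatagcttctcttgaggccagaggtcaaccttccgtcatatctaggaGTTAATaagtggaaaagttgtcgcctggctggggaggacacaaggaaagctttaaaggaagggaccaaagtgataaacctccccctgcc
Among the genes with these sequences, Apoc2 rose by 5.39 ± 0.43 (adjusted p 3.77e-05), from 3.1, 3.96 and 3.21 to 8.55, 9.4 and 8.49. Fgb started under background at 2.99, -1.17 and -1.17 and reached 5.29, 6.14 and 6.33.

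Genes of the absorptive epithelium rose alongside those of its secreted products. Of 24 listed visceral endoderm epithelium genes, 23 were tested, 21 rose and 0 fell (all genes: 21.7% and 11.9%). Their median was 4.06 (3.9 with bounds). The list mean was 4.39, 4.19 and 4.46 on the day 0 arrays and 8.01, 8.28 and 8.15 on the BPA arrays, with no overlap. The receptor machinery for protein uptake rose together. Cubn, the receptor that binds filtered and luminal proteins, went from 4.98, 4.5 and 4.97 to 9.23, 9.31 and 8.81 (4.3 ± 0.25, adjusted p 1.01e-05). Amn, which carries cubilin to the cell surface, rose by 4.09 ± 0.36 (adjusted p 5.79e-05), and Dab2, the adaptor that links such receptors to clathrin, by 4.06 ± 0.22 (adjusted p 8.3e-06). Lrp2, the co-receptor megalin, rose by 1.32 ± 0.28 (adjusted p 0.00624). The keratin pair of simple epithelia rose strongly: Krt18 read 7.33, 7.54 and 8.11 before and 12.13, 12.35 and 12.59 after, a 25.9-fold rise, and Krt8 rose by 3.9 ± 0.25 (adjusted p 1.48e-05). S100g, a calcium-binding protein of absorptive epithelia, lay under background on all day 0 arrays and reached 8.13, 10.3 and 8.91, at least 52.3-fold higher. Cited1, a transcriptional co-activator, rose by at least 4.78 and the serine protease Tmprss2 by at least 4.04. The chloride channel family member Clic6 rose by 5.58 ± 0.34 (adjusted p 1.16e-05). Vil1 (1.46 ± 0.52, adjusted p 0.0538) and Cdhr5, both of the brush border, did not pass. Rhox5, an X-linked homeobox gene, was the list member that also lay above control day8, by 1.95 on the log2 scale.

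Endodermal transcription factors split into those that rose and those that did not. Of 18 listed, 12 were tested, 7 rose and 1 fell (median 2.16, or 1.75 with bounds). The shares were 58.3% and 8.3%, beside 21.7% and 11.9% of all genes. Sox17, an endoderm determinant, gave 3.0, 2.64 and 3.84 at day 0 and 8.77, 8.74 and 8.73 under BPA, a rise of at least 5.2. Hnf4a, which drives apolipoprotein and serum protein genes, rose from under background (0.96, 1.24, 2.09) to 6.21, 6.12 and 6.1, at least 6.67-fold. Foxa2 rose by 3.01 ± 0.35 (adjusted p 0.00026) and Sox7 by 2.01 ± 0.29 (adjusted p 0.000896). Gata6, the factor at the head of primitive endoderm, rose 4.96-fold, from 4.99, 5.38 and 5.27 to 7.63, 7.64 and 7.28, yet stayed 1.94 ± 0.2 below control day8 (adjusted p 0.000405), where its mean was 9.46. Foxa1 (1.0 ± 0.38, adjusted p 0.0678) and Hhex (0.55 ± 0.22, adjusted p 0.084) did not pass and lay below control day8 by 2.5 and 1.23. Cebpa fell at least 1.49-fold from values near background, a call lost with a pseudocount of 64 (adjusted p 0.0511). In all, 5 of the 12 factors lay below control day8 and 0 above it (all genes: 10.2% and 12%).

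The basement membrane genes that parietal endoderm secretes also rose. All 19 listed genes were tested, 14 rose and 1 fell (median 1.06), where 21.7% of all genes rose and 11.9% fell. Lama1, the laminin chain of embryonic basement membrane, went from 4.69, 5.03 and 5.47 to 9.57, 8.85 and 9.24 (17.8-fold, adjusted p 5.23e-05). The collagen IV chains Col4a1 and Col4a2 rose by 2.96 ± 0.19 and 2.61 ± 0.2, and Lamb1 by 1.81 ± 0.18. Pth1r, the parathyroid hormone related protein receptor found on parietal endoderm, rose by at least 4.02. Srgn, a granule proteoglycan, rose from 4.61, 4.74 and 5.54 to 9.74, 9.18 and 9.75 (24.1-fold) and lay 1.23 ± 0.35 above control day8 (adjusted p 0.0335). Thbd, the thrombin receptor thrombomodulin, was the member that fell, by 1.59 ± 0.29 on the log2 scale (adjusted p 0.00269).

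**Figure D2:**
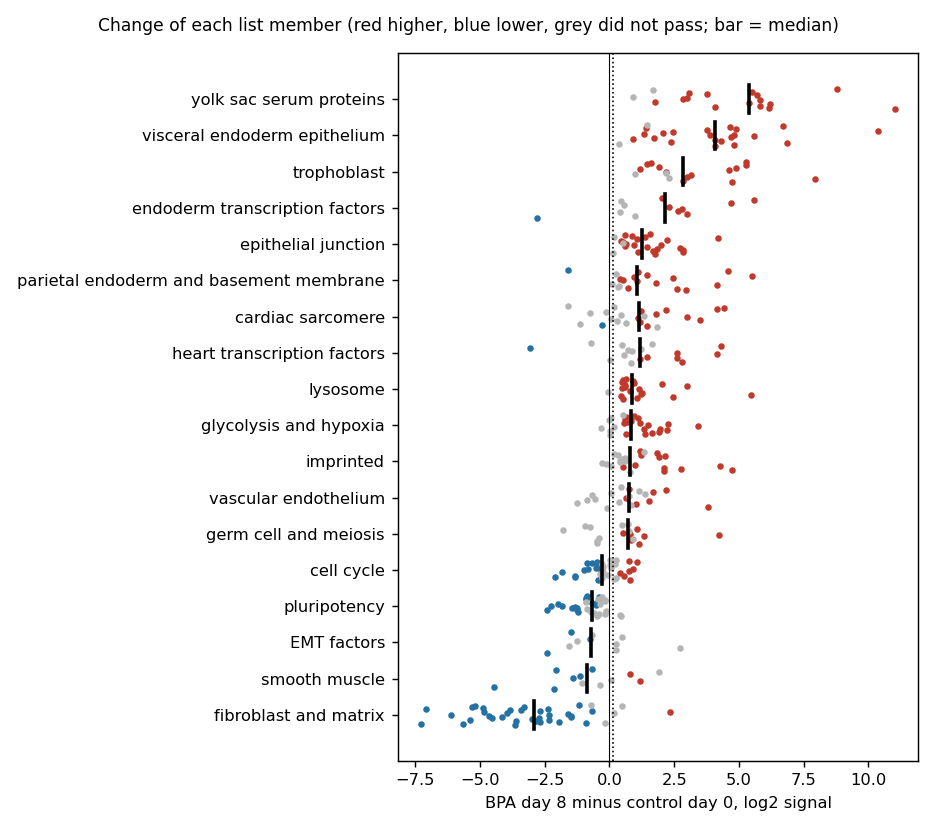
Log2 difference between BPA day 8 and control day 0 for each tested member of 18 gene lists. Each point is a gene, coloured red where it rose, blue where it fell and grey where it did not pass, and the black bar is the list median. The dotted line is the median of all genes, 0.14. Serum proteins (5.39) and visceral endoderm epithelium (4.06) lie farthest right, and fibroblast and matrix genes (-2.91) farthest left.

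Trophoblast genes, which belong to the placental lineage, formed another rising group. Of 22 listed, 17 were tested, 14 rose and 0 fell, beside 21.7% and 11.9% of all genes. The median was 2.83, or 1.61 with bounds, since 4 members lay under background on every day 0 array. The list mean was 2.84, 3.3 and 3.08 at day 0 and 6.11, 6.26 and 6.64 under BPA. In control day8, 11 of the 17 rose from day 0 as well (median 1.99), beside 28.3% of all genes. Under BPA, 4 of the 17 lay above control day8 and 0 below (all genes: 12% and 10.2%). Ctsj, a cathepsin of the placenta, lay under background at day 0 and read 6.06, 6.12 and 7.58 under BPA, at least 9.05-fold higher. Its level in control day8 was 4.08, 1.62 and 3.95, and since the mean there was under background, BPA lay at least 2.77 above it (adjusted p 0.00614). Plac1, a placental surface protein, rose by 5.26 ± 0.47 (adjusted p 6.71e-05) and Krt7, a keratin of trophoblast, by 4.89 ± 0.31 (adjusted p 1.24e-05). Among the regulators, Gata3 rose at least 6.85-fold and Ascl2 at least 5.73-fold from under background. Gata2 rose by 2.2 ± 0.26 (adjusted p 0.000288) and Tfap2c by 1.61 ± 0.23 (adjusted p 0.000773), and Tfap2c lay 1.67 above control day8. Ctsq (2.29 ± 1.12, adjusted p 0.145), Esx1 (2.2 ± 0.82, adjusted p 0.0638) and Eomes (1.0 ± 0.38, adjusted p 0.0696) did not pass. Tpbpa, a marker of spongiotrophoblast, was uneven, at 4.0, 0.66 and -0.14 before and 5.53, 6.42 and 8.39 after, with BPA array 3 the highest (at least 3.18, adjusted p 0.00614).

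Among the largest rises outside the lists were genes of several kinds. The X-linked homeobox genes Rhox6 and Rhox9 rose from near background to 10.14, 10.05 and 10.61 and to 9.88, 9.96 and 10.38, by 6.36 ± 0.42 and 6.53 ± 0.39 (adjusted p 1.48e-05 and 1.01e-05). Nrk, a kinase of the placenta, rose 59.2-fold, from 5.09, 4.46 and 4.72 to 10.43, 10.61 and 10.89. The serpin Serpinb9g rose at least 32.9-fold, and Sct, which encodes the hormone secretin, by at least 5.16. Fxyd3, a regulator of the sodium pump, rose at least 11.6-fold and Fam90a1b at least 11.9-fold. Tfec, a transcription factor of the Mitf family, rose by at least 3.2. Others among the rises also lay above control day8. Sbsn, a secreted epithelial protein, read 9.61, 9.55 and 10.31 against 4.33, 4.75 and 5.67 at day 0 and lay 1.92 above control day8 (adjusted p 0.0119). The gap junction genes Gjb2 and Gjb5 rose by 3.68 ± 0.35 and 3.6 ± 0.38 and lay 1.15 and 2.03 above it. Plet1, a surface protein of placental progenitors, rose by 4.36 ± 0.33, Plbd1 by 4.25 ± 0.48 and Hs3st1, a heparan sulfate enzyme, by 3.74 ± 0.29.

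Cell junction genes shifted towards an epithelial make-up. All 24 listed junction genes were tested, 21 rose and 0 fell (median 1.24), where 21.7% of all genes rose and 11.9% fell. Prss8, a membrane protease of epithelia, rose by 4.21 ± 0.55 (adjusted p 0.000499). The claudins Cldn7 and Cldn4 rose by 2.83 ± 0.25 and 1.68 ± 0.12, the tight junction protein Ocln by 2.24 ± 0.17 and the desmosome protein Dsp by 2.73 ± 0.31. Cldn4 read 7.34, 7.24 and 7.27 at day 0 and 8.85, 8.96 and 9.08 under BPA, and lay 1.29 above control day8. Epcam, an adhesion molecule of ES cells and epithelia, rose by 0.61 ± 0.14 (adjusted p 0.00989). Cdh1, the E-cadherin gene, was 0.12 ± 0.09 higher and did not pass (adjusted p 0.348), while control day8 lay 0.95 below BPA. Of the 24 genes, 8 were above control day8 and 0 below (all genes: 12% and 10.2%).

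Lysosomal enzymes and sugar metabolism genes also rose widely. Over all genes, for the counts in this paragraph, 21.7% rose and 11.9% fell. Of 24 listed lysosomal genes, 20 were tested and 19 rose, the exception being Gla (-0.06 ± 0.27, adjusted p 0.885), with a median of 0.86. Ctsh, a lysosomal cysteine protease, moved from 3.89, 5.06 and 4.66 to 9.83, 9.96 and 10.21 (44-fold). The asparaginyl protease Lgmn rose by 3.01 ± 0.22 and the dipeptidyl peptidase Ctsc by 2.46 ± 0.29. Of 28 listed glycolysis and hypoxia genes, 25 were tested, 18 rose and 0 fell (median 0.84). Ndrg1, a gene induced by low oxygen, rose 10.8-fold, from 6.6, 6.65 and 7.54 to 10.14, 10.14 and 10.8. Bnip3, a mitochondrial hypoxia target, rose by 1.9 ± 0.23, and the glucose transporter Slc2a1 by 1.11 ± 0.14. Ldha, which makes lactate, was 0.18 ± 0.09 higher and did not pass (adjusted p 0.159).

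The pluripotency genes fell only modestly, and several central ones did not pass the test. Of 33 listed, 31 were tested, 16 fell and 0 rose, with a median of -0.66, where 11.9% of all genes fell and 21.7% rose. The list mean was 9.74, 9.69 and 9.65 at day 0 and 8.95, 8.91 and 8.86 under BPA. Without control day0 array 1, without control day0 array 2 or without BPA array 3, the fallen members numbered 10. They numbered 20 without control day8 array 1 and 21 with a variance trend or a pseudocount of 64. With only the 6 compared arrays fitted, 19 fell and 1 rose. Pou5f1 read 11.54, 11.48 and 11.32 before and 10.54, 10.59 and 10.55 after. Its arrays did not overlap, but the change of -0.89 ± 0.38 did not pass (adjusted p 0.0981). It did pass when only the 6 arrays compared were fitted (adjusted p 0.00485), with a variance trend (adjusted p 0.0311) and with a pseudocount of 64 (adjusted p 0.00954). The main fit pools the spread of all 12 arrays. For Pou5f1 the standard deviation was 0.11 at day 0 and 0.03 under BPA. It was 0.84 in control day8 and 0.51 under NP, the other agent in the series. Nanog (-0.37 ± 0.28, adjusted p 0.34) and Sox2 (-0.17 ± 0.14, adjusted p 0.391) did not pass either. Nanog stood at 10.2, 10.59 and 10.43 under BPA, against 10.76, 10.66 and 10.92 at day 0 and 7.29, 8.06 and 8.6 in control day8. A p that misses the threshold does not show that these levels were equal.

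Other members of the network did fall. Zfp42, a marker of undifferentiated cells, fell by 0.88 ± 0.22 (adjusted p 0.0144), from 11.83, 11.54 and 11.87 to 10.75, 10.87 and 10.99. The nuclear receptor genes Esrrb and Nr0b1 fell by 1.2 ± 0.2 and 1.97 ± 0.42, and the Kruppel-like factors Klf4 and Klf5 by 1.24 ± 0.14 and 1.43 ± 0.16. Gbx2, a homeobox target of the LIF pathway, fell 5.27-fold, from 7.14, 7.08 and 6.51 to 4.58, 4.3 and 4.65. The Nodal antagonists Lefty1 and Lefty2 fell by 2.26 ± 0.27 and 1.85 ± 0.3. Against control day8, 28 of the 31 lay higher under BPA and 0 lower (background 12% and 10.2%). Pou5f1 was 2.92 ± 0.38 and Zfp42 2.73 ± 0.22 above control day8 (adjusted p 0.000997 and 0.000229). In bulk RNA, fewer cells of a type and less RNA per cell cannot be told apart, and this holds for every group of genes described here.

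Genes of the primed epiblast and the primitive streak, the stage after naive pluripotency, moved little. Of 24 listed, 17 were tested, 4 rose and 0 fell (median 0.4, or 0.15 with bounds). The share that rose, 23.5%, was near the 21.7% of all genes, of which 11.9% fell. Without control day0 array 1 or BPA array 1, 2 rose, and without control day0 array 2, 1 member fell. Otx2, a factor of the primed epiblast, rose by 1.48 ± 0.25 (adjusted p 0.00182), from 7.44, 7.7 and 7.9 to 9.13, 9.3 and 9.05. Fgf5, a classical primed marker, was 0.41 ± 0.3 higher (adjusted p 0.327), and Dnmt3b, a de novo DNA methyltransferase, 0.16 lower with a change of -0.16 ± 0.14 (adjusted p 0.43).

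Germline genes, several of which ES cells already express, rose in part. Of 21 listed, 17 were tested, 7 rose (41.2%, beside 21.7% of all genes) and 0 fell (median 0.73). Without control day8 array 1, 3 members fell. Smc1b, the meiotic cohesin subunit, read 4.34, 2.06 and 1.64 at day 0 and 6.86, 6.9 and 6.98 under BPA, a rise of at least 3.2. Rec8, another meiotic cohesin, rose by 1.33 ± 0.27, Dazl, a germ cell RNA-binding protein, by 1.15 ± 0.28, and Sycp3, of the synaptonemal complex, by 1.05 ± 0.25. Compared with control day8, 15 of the 17 genes lay higher under BPA (all genes: 12%), Dazl by 2.9 and Sycp3 by 1.68.

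**Figure D3:**
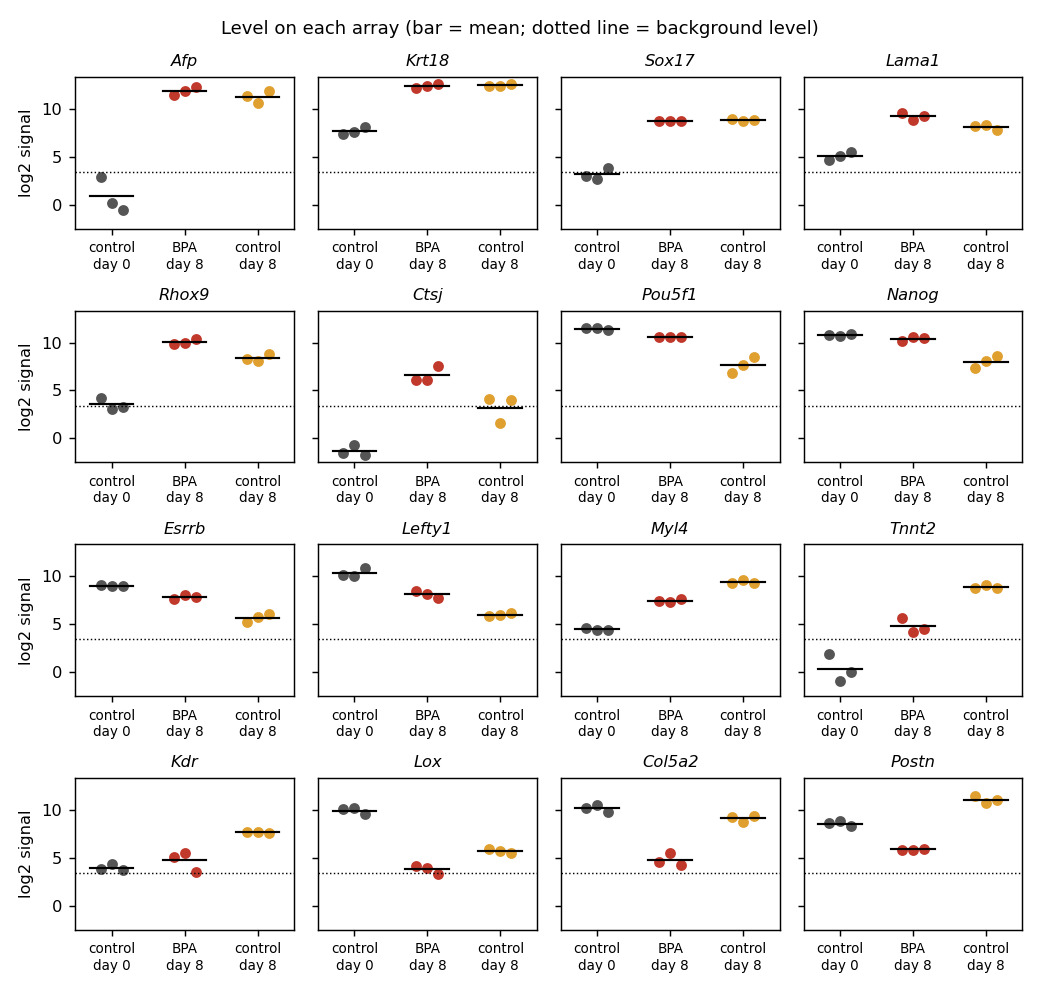
Log2 signal of 16 named genes on each control day 0, BPA day 8 and control day 8 array. Bars are group means and the dotted line is the background level of 3.41. For Afp, Krt18 and Sox17 the BPA and control day 8 arrays overlap, Pou5f1 and Nanog stay near day 0 under BPA, and Col5a2 and Postn lie lowest under BPA.

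Heart muscle genes appeared, but weakly and unevenly. Of 27 listed sarcomere genes, 22 were tested, 10 rose and 1 fell (median 1.14, or 0.65 with bounds). The shares were 45.5% and 4.5%, beside 21.7% and 11.9% of all genes. The number that rose was 5 without control day0 array 1, control day0 array 2 or BPA array 1, 6 without BPA array 2 and 4 without BPA array 3. The single fall was not called without control day0 array 1 or 3 or without any BPA array. Myl4, an atrial and embryonic myosin light chain, gave 4.64, 4.35 and 4.37 before and 7.43, 7.28 and 7.61 after (7.92-fold, adjusted p 0.00114). Tnnt2, cardiac troponin T, lay under background at day 0 and read 5.66, 4.18 and 4.49 under BPA, at least 2.58-fold higher, and Myh7, a slow myosin heavy chain, rose at least 3.96-fold. The Tnnt2 call was lost with a pseudocount of 16 (adjusted p 0.0783) or 64 (adjusted p 0.174), and that of Myh7 with 64 (adjusted p 0.14). Actc1, cardiac actin, read 7.39, 6.97 and 5.44 and did not pass (1.84 ± 0.86, adjusted p 0.13). Myl7 (1.33 ± 0.88, adjusted p 0.278) and Myh6 (0.28 ± 0.44, adjusted p 0.661) did not pass. Ttn, titin, was lower at 3.36, 3.1 and 3.54, with a change of -1.61 ± 0.78 (adjusted p 0.143). In the comparison with control day8, 16 of the 22 lay lower under BPA (all genes: 10.2%), with a median difference of -1.81. Among them was Tnnt2, by 4.11 ± 1.02 (-4.11, adjusted p 0.0189).

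The cardiac regulators rose in part. Of 18 listed heart transcription factors, 17 were tested, 7 rose and 1 fell (median 1.19, or 0.85 with bounds). The shares were 41.2% and 5.9%, beside 21.7% and 11.9% of all genes. Without control day0 array 1 or 2, 0 fell. Isl1, of the second heart field, rose 6.08-fold, from 3.73, 3.5 and 3.47 to 6.44, 6.36 and 5.71. Tbx20 rose by at least 2.42, a call lost when its probe sets were averaged (adjusted p 0.123), and Hey2, a Notch target in the ventricle, by 1.43 ± 0.26 (adjusted p 0.00281). Hand2 was high on BPA arrays 1 and 2 (6.08 and 5.67) and near background on array 3 (3.61), at least 3.28-fold higher than day 0 (adjusted p 0.0223). That call was lost without control day0 array 3, BPA array 1 or BPA array 2, and with the 6 compared arrays alone (adjusted p 0.0694). Nkx2-5, the early cardiac homeobox gene, was 0.7 ± 0.53 higher and did not pass (adjusted p 0.347). Isl1 and Hand2 lay below control day8 by 2.35 and 4.72, differences of -2.35 and -4.72.

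Endothelial genes rose in part, and few blood genes were called. For the counts in this paragraph, the shares over all genes were 21.7% higher and 11.9% lower. Of 22 listed endothelial genes, 19 were tested, 7 rose and 0 fell (median 0.74, or 0.54 with bounds), and 1 fell without BPA array 2 or without NP array 1, NP being the other agent in the series. Cdh5, the endothelial cadherin, rose at least 6.34-fold, from under background to 5.46, 6.17 and 6.58. Esam, an endothelial adhesion molecule, rose by 1.53 ± 0.29, and Egfl7, a secreted endothelial factor, by 1.03 ± 0.13, the latter not called with averaged probe sets (adjusted p 0.0772). Kdr, the main VEGF receptor, read 5.11, 5.54 and 3.5 under BPA against 3.8, 4.4 and 3.73 at day 0, with overlap, and did not pass (0.74 ± 0.44, adjusted p 0.233). Pecam1, an endothelial adhesion molecule, did not pass either (1.39 ± 0.64, adjusted p 0.124). Kdr was 7.66, 7.74 and 7.57 in control day8, and 10 of the 19 genes lay below control day8 (all genes: 10.2%). Against control day8, Cdh5 (-0.83 ± 0.5, adjusted p 0.272) and Pecam1 (0.41 ± 0.64, adjusted p 0.697) did not pass. The embryonic globins Hba-x and Hbb-bh1 were present on BPA arrays 1 and 2 (4.21 and 5.82, and 5.74 and 7.88) and under background on array 3 (0.7 and -0.54). Neither passed (adjusted p 0.0673 and 0.731), nor did the erythroid factor Gata1 (2.97 ± 1.05, adjusted p 0.0549). With low values set to background, the change of Gata1 was 1.4. Of 18 erythroid genes listed, 8 were tested, and 1 rose and 1 fell. The rise, of Lmo2, was lost without control day0 array 1 or 2 or any BPA array, and the fall, of Runx1, without control day0 array 2 or 3 or BPA array 2. The Lmo2 call was also lost with quantile normalization (adjusted p 0.0533), median centring (0.0524), no filter (0.0508), the 6 compared arrays alone (0.0751) or a replicate block (0.0561). Without control day0 array 3, NP array 1 or NP array 2, 2 members rose. Among 9 tested macrophage genes, Csf1r rose by 3.31 ± 0.28 (adjusted p 4.99e-05) and Cd68 by 1.69 ± 0.19 (adjusted p 0.000246). Laptm5 fell (-1.12 ± 0.3, adjusted p 0.0178), a call lost without control day0 array 1 or 2 or BPA array 1, and with averaged probe sets (adjusted p 0.571). Without control day8 array 1, 2 members fell. Tyrobp (0.43), Adgre1 (-0.14) and Spi1 (-1.03), other macrophage genes, did not pass.

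The largest falls were in fibroblast and matrix genes. Of 40 listed, 38 were tested, 33 fell and 1 rose (all genes: 11.9% and 21.7%). Their median was -2.91 (-2.78 with bounds). The list mean was 8.52, 8.76 and 8.5 at day 0 and 5.75, 5.69 and 5.28 under BPA. Lox, which cross-links collagen, went from 10.06, 10.15 and 9.55 to 4.19, 3.89 and 3.35 (68.9-fold lower, adjusted p 2.07e-05). Col5a2, a fibrillar collagen chain, went from 10.21, 10.47 and 9.79 to 4.53, 5.51 and 4.23 (42.2-fold lower), and Thbs1, a matricellular protein, from 10.15, 10.18 and 10.27 to 5.34, 5.31 and 5.25 (29.8-fold lower). The collagen genes Col1a2, Col3a1 and Col6a3 fell by 2.83 ± 0.26, 3.61 ± 0.33 and 4.52 ± 0.24. The proteoglycan genes Dcn and Bgn fell by 4.15 ± 0.48 and 4.56 ± 0.36, Tnc and Fbln2, of the elastic and provisional matrix, by 5.19 ± 0.45 and 5.14 ± 0.29, and Cav1, of membrane caveolae, by 4.81 ± 0.28. Igfbp7, a secreted growth factor binding protein, fell 25.2-fold, and Col12a1 by at least 3.98 on the log2 scale. Among large falls outside the list, Ptgs2, which makes prostaglandins, went from 8.78, 8.9 and 9.79 to 4.19, 4.21 and 5.03 (25.6-fold lower). Ereg, an EGF receptor ligand, fell at least 11.7-fold and Ifi202b by at least 3.44, calls lost without BPA array 1 (adjusted p 0.0537) and without BPA array 2 (adjusted p 0.0556). Pdgfra, a receptor of both mesenchyme and primitive endoderm, was the member that rose, by 2.32 ± 0.21 (adjusted p 7.1e-05).

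Several genes that mark feeder fibroblasts ended near background. S100a4, a fibroblast calcium-binding protein, read 10.27, 10.55 and 9.81 at day 0 and 2.65, 2.85 and 3.92 under BPA, at least 99.2-fold lower. Thy1 went from 8.06, 8.51 and 7.98 to 4.22, 4.35 and 0.05, and Mmp3, a secreted protease, from 7.17, 7.57 and 6.53 to 3.6, -0.23 and 3.38. The chemokine genes Ccl2 and Ccl7 fell by at least 4.78 and at least 3.77 on the log2 scale, with signals of 8.61, 8.76 and 7.82 and of 7.35, 7.54 and 6.97 at day 0 and means under background with BPA. S100a6, a relative of S100a4 found in many cell types, stayed well above background at 8.73, 8.68 and 9.33, having fallen by 2.36 ± 0.26 (adjusted p 0.000205). In control day8 the means of S100a4, Thy1 and Mmp3 were also low, at 3.09, 2.97 and 1.6. The labels name fibroblast feeders, so for every gene that fibroblasts also express, fewer feeder cells in the sample and a lower level in ES-derived cells cannot be told apart. Other matrix genes separated the 2 day 8 groups. Postn, periostin, fell 6.42-fold under BPA, from 8.58, 8.81 and 8.31 to 5.85, 5.84 and 5.96, but read 11.44, 10.75 and 11.05 in control day8, a difference of -5.19 ± 0.32 (adjusted p 0.000111). Col1a1 fell by 1.96 ± 0.35 and lay 2.46 below control day8, a difference of -2.46. Of the 38 genes, 25 were below control day8 and 0 above (all genes: 10.2% and 12%).

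Smooth muscle and mesenchymal genes fell in part. Of 14 listed smooth muscle genes, 12 were tested, 6 fell and 2 rose (median -0.88), against 11.9% and 21.7% of all genes. Without control day0 array 2, 3 fell, and without control day0 array 1 or 2 or BPA array 2 or 3, 1 rose. Acta2, smooth muscle actin, fell by 2.15 ± 0.45, from 10.99, 11.27 and 11.25 to 9.3, 9.51 and 8.26, and Tagln, its partner in contractile fibres, by 2.06 ± 0.28. Csrp1 rose by 1.17 ± 0.19 (adjusted p 0.00148). Among 10 factors and cadherins of the epithelial to mesenchymal transition, 3 fell and 0 rose (median -0.71), and 1 rose without any single control day0 array. Cdh11, a mesenchymal cadherin, fell from 9.45, 9.75 and 8.99 to 7.02, 7.78 and 6.1 (5.4-fold), and Zeb2, a repressor of E-cadherin, by at least 1.0 on the log2 scale. Snai2 read 7.4, 7.88 and 5.63 and did not pass (-1.26 ± 0.66, adjusted p 0.171). The feeder-linked fibroblast list moved with these genes, and its part in their change was not tested. Of the 10, 8 lay below control day8 (all genes: 10.2%), Snai2 by 3.2 (-3.2) and Twist1 by 3.02 (-3.02).

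**Figure D4:**
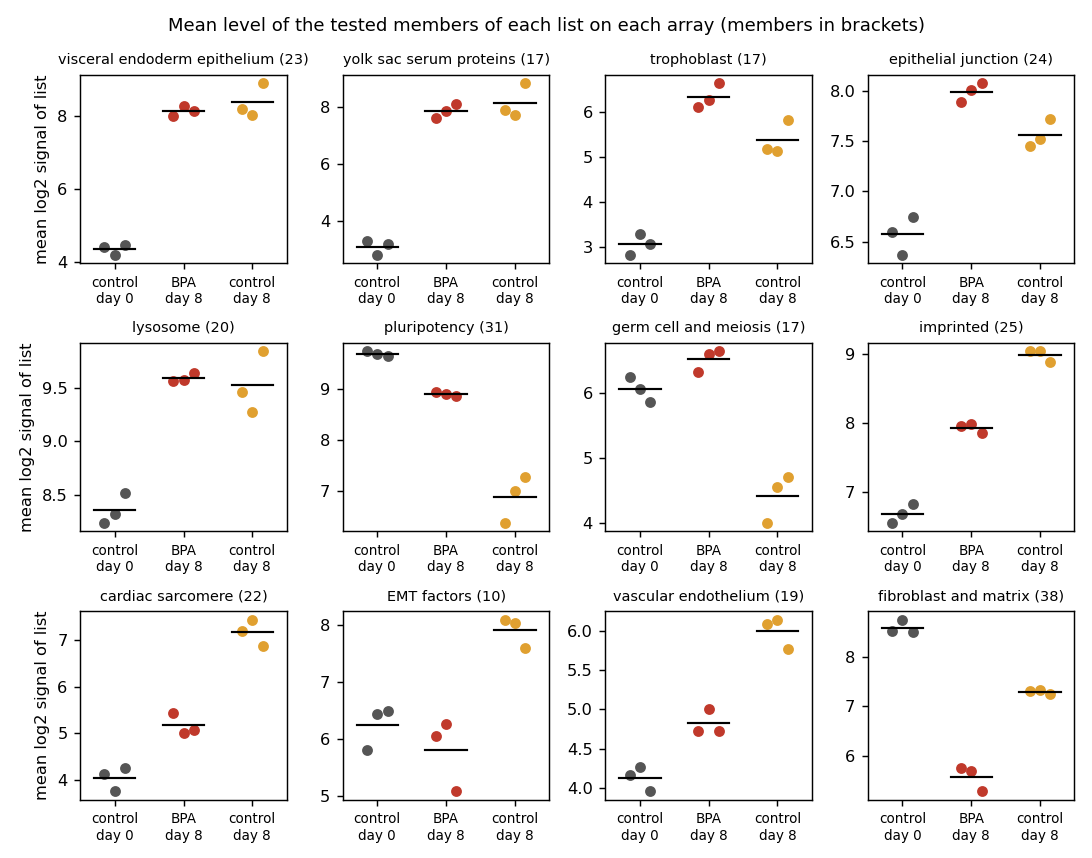
Mean log2 signal of the tested members of 12 gene lists on each control day 0, BPA day 8 and control day 8 array, with bars at the group mean and each panel on its own vertical scale. Under BPA the serum protein list (7.63 to 8.11) and the visceral endoderm list (8.01 to 8.28) overlap control day 8 (7.73 to 8.85 and 8.05 to 8.92), the pluripotency list lies near day 0 (8.86 to 8.95), and the fibroblast and matrix list lies below both other groups (5.28 to 5.75).

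Signalling genes changed in both directions. Of 28 listed TGF-beta, BMP and Nodal pathway genes, 26 were tested, 9 rose and 7 fell (median 0.18), and 5 rose without control day0 array 1 or 2 or BPA array 1. The shares were 34.6% and 26.9%, beside 21.7% and 11.9% of all genes. Among the ligands, Bmp2 rose by 2.95 ± 0.37 and Bmp4 by 1.27 ± 0.19, the former from 2.75, 3.87 and 4.18 to 6.78, 6.23 and 6.65. Inhba and Inhbb, which encode activin subunits, fell, Inhba by at least 4.85 and Inhbb by 2.45 ± 0.31 (adjusted p 0.000439). Tgfb3 fell at least 2.37-fold, to under background on all BPA arrays. Cfc1, a Nodal co-receptor, rose by 2.21 ± 0.36, and Id2, a BMP target, by 1.73 ± 0.23. Of 28 listed Wnt pathway genes, 23 were tested, 5 rose and 4 fell (median 0.12), shares of 21.7% and 17.4% beside 21.7% and 11.9% of all genes. The number that rose was 3 without control day0 array 1 or BPA array 1 or 2, and 2 fell without BPA array 3. The secreted Wnt inhibitors Frzb and Dkk1 rose by 3.27 ± 0.24 and 2.51 ± 0.37, and the receptor gene Fzd5 fell by 1.35 ± 0.14, a call lost with averaged probe sets (adjusted p 0.0748). Axin2, a general readout of Wnt signalling, was 0.05 ± 0.34 higher (adjusted p 0.928). In the retinoid list, 14 of 18 genes were tested, 4 rose and 1 fell (median 0.24, or 0.15 with bounds). These shares, 28.6% and 7.1%, were near the 21.7% and 11.9% of all genes. Without control day0 array 2 or 3 or BPA array 1 or 3, 0 fell, and without NP array 2 or 3, 2 fell. Cyp26a1, which degrades retinoic acid, rose by at least 4.0, and Rarb, a retinoic acid receptor, at least 2.17-fold.

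Of 31 imprinted genes listed, 25 were tested, 12 rose and 0 fell (median 0.79), where 21.7% of all genes rose and 11.9% fell. Igf2, the fetal growth factor, went from 7.24, 7.51 and 8.13 to 11.61, 12.01 and 12.05 (19.2-fold, adjusted p 4.3e-05). Cdkn1c, a growth-restraining cell cycle inhibitor, rose by 2.78 ± 0.33 and Peg3 by 2.13 ± 0.3. Dlk1, a Notch-like growth regulator, rose from 4.21, 4.34 and 5.54 to 7.06, 7.11 and 6.19, and lay 3.8 below control day8 (-3.8 ± 0.45, adjusted p 0.000721). Meg3, its neighbour, was 0.4 ± 0.23 higher and did not pass (adjusted p 0.22). In all, 12 of the 25 lay below control day8 and 0 above (all genes: 10.2% and 12%). Of 32 Hox cluster genes, which pattern the body axis, 15 were tested, 0 rose and 1 fell (median -0.69, or -0.41 with bounds). That fall, of Hoxc8 (-2.9 ± 0.95, adjusted p 0.0415), was lost without any control day0 array, BPA array 1 or 3, control day8 array 1 or NP array 1 or 3, and 3 fell without BPA array 2. It was also lost with no filter (adjusted p 0.0677), the 6 compared arrays alone (0.0921), array weights (0.0534) or a replicate block (0.0538).

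Proliferation genes moved by small amounts. For the counts in this paragraph, the shares over all genes were 21.7% higher and 11.9% lower. Of 38 cell cycle genes listed, 37 were tested, 15 fell and 7 rose (median -0.28), and 9 fell without control day0 array 1. Among the cyclins, Ccnd1 fell 4.28-fold, from 10.55, 10.69 and 10.57 to 8.39, 8.59 and 8.54, and Ccnd2 by 1.34 ± 0.22, and Ccne1, which drives entry into S phase, by 1.34 ± 0.16. Rb1, the retinoblastoma gene, rose by 1.07 ± 0.19. Mki67 (0.23 ± 0.13, adjusted p 0.19) and Top2a (0.03 ± 0.1, adjusted p 0.836), which mark cycling cells, did not pass. Ccnd1 and Ccnd2 are also expressed in fibroblasts, and the part of feeder RNA was not tested. Of 25 DNA methylation and Polycomb genes listed, 21 were tested, 7 fell and 5 rose (median 0.02), and 3 rose without control day0 array 2 or BPA array 1. Tet1, which oxidises methylcytosine, fell 3.2-fold, from 11, 10.92 and 10.47 to 8.93, 9.5 and 8.92, and Phc1, a Polycomb subunit, fell by 0.86 ± 0.12. Bmi1 rose by 0.88 ± 0.11. Dnmt1, the maintenance methyltransferase, was 0.22 ± 0.16 higher (adjusted p 0.31).

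Stress and metabolic lists gave small and mixed changes. Beside the counts in this paragraph stand the shares over all genes, 21.7% higher and 11.9% lower. The interferon list gave 33.3% and 14.3%, and the cholesterol list 9.1% each way. In the NRF2 and glutathione list, 18 of 23 genes were tested, 9 fell and 5 rose (median -0.38): Gsto1 fell by 1.34 ± 0.12 and Gstm1 rose by 1.59 ± 0.29, both glutathione transferases. In the ER stress and amino acid list, all 19 were tested, 7 fell and 3 rose (median -0.2), with Atf4, the regulator of amino acid synthesis genes, down by 0.84 ± 0.12 (a change of -0.84) and Xbp1 up by 0.93 ± 0.13. Of 25 cholesterol and fatty acid genes, 22 were tested, 2 rose and 2 fell (median -0.16). The number that rose was 0 without control day0 array 1 or 2 or BPA array 1 and 1 without BPA array 2 or 3, and 1 fell without BPA array 3. All 11 metallothionein and zinc genes were tested, 4 rose and 0 fell (median 0.68, or 0.49 with bounds), and the number that rose was 2 without control day0 array 2 or 3 or any BPA array, while 1 fell without control day8 array 2 or 3. The zinc transporter Slc39a8 rose by 2.82 ± 0.25, but did not pass when its probe sets were averaged (adjusted p 0.301). In the interferon and MHC class I list, 21 of 23 genes were tested, 7 rose and 3 fell (median 0.49), and 1 fell without BPA array 1. The antigen-processing genes Tap1 and Tapbp rose by 2.18 ± 0.21 and 1.26 ± 0.14. Of 27 neural genes listed, 19 were tested, 5 fell and 2 rose (median -0.63), and no rise was called without any of the control day0 arrays, BPA arrays 1 and 2, control day8 arrays 1 and 2 or NP array 2, while 1 was called without NP array 1 or 3. Stmn2, of growing axons, and Pax6, a neural regulator, fell by 1.98 ± 0.22 and 2.16 ± 0.37. The neural marker Nes fell by 0.85 ± 0.23 (adjusted p 0.0183). That call was lost without control day0 array 2 or BPA array 1 or 3, and with averaged probe sets (adjusted p 0.369). Sox1 (-0.63 ± 0.38, adjusted p 0.232) and Tubb3 (-0.93 ± 0.34, adjusted p 0.0587) did not pass. Among 9 tested reference genes, 1 rose and 1 fell (median -0.18), calls that were both lost without control day0 array 1 or 2 or any BPA array, the rise also without control day8 array 1 or NP array 1 and the fall without NP array 2, while 2 fell without control day8 array 3. Actb (-0.2 ± 0.08, adjusted p 0.081) and Rpl13a (0.06 ± 0.1, adjusted p 0.656) did not pass.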

How the data were processed

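Total RNA from 12 samples in 4 groups of 3 was hybridised to Affymetrix mouse arrays. The deposited log2 values are MAS5 probe set signals, per the submitters' processing notes; the MAS5 version and the scaling are not given in the sources used here. Back-transformed, each array had the same trimmed mean (100.04, with 2% cut at each end). No value was rescaled and no pseudocount was added.

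Of 45101 probe sets, 64 were controls, 34958 had 1 gene symbol, 932 several and 9211 none in the platform annotation given. The top 60% by mean over the 12 arrays were kept (27022), and the probe set with the highest mean stood for each gene (13066 genes). A member high in only 1 group could pass through that group alone, so counts are over tested members and not over whole lists. limma 3.58.1 in R 4.3.3 was fitted over all 12 arrays, with 8 residual degrees of freedom, and p-values were adjusted by Benjamini-Hochberg over all genes at a threshold of 0.05. The step was checked on simulated data. The background level was the highest of 36 values of 3 bacterial control probe sets. The number of arrays limits the precision.

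The genes named were the 20 largest rises and 20 largest falls among called genes whose arrays did not overlap and whose higher group reached the median gene mean, the 10 of each direction also called against control day8, members of the 33 lists, and cell type markers (Fbn1 and Ptprc were not among the genes tested). The comparison, the lists and the markers were chosen with earlier results of these data known. Correlations between same-numbered arrays of control day0 and BPA day8 were 0.028, 0.013 and 0.008, so the numbers were not taken as pairs. Alternatives covered scaling, pseudocount, filter, probe set choice, the arrays fitted, the variance model, array weights, the replicate number as a block and leaving out each array.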

Additional observations from a re-analysis of the deposited data

Results flagged for a closer look

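The change from day 0 was set beside the same change in control day8, and genes are given here where the difference between the 2 changes passed limma's test (adjusted p under 0.05). Since both changes start from the same day 0 arrays, this difference equals BPA day8 minus control day8, in log2 units, and is given in brackets. The genes were chosen by the naming rule and the marker list, with earlier results known.

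Among the large rises, the rise was greater under BPA for Ctsj (3.37), Rhox9 (1.67), Sbsn (1.92), Srgn (1.23), Plet1 (1.30), Plbd1 (1.58), Smc1b (3.31), Hs3st1 (1.30), Gjb2 (1.15) and Gjb5 (2.03). Control day8 lay under background on average for Ctsj and on 1 array for Smc1b, and with low values set to background these differences were at least 2.77 and 2.5. Among the large falls, the fall was deeper under BPA for Inhba (-2.41), Lox (-1.91), Col5a2 (-4.36), Tnc (-2.38), Fbln2 (-1.94), Thbs1 (-1.0), Cav1 (-2.24), Ptgs2 (-1.78), Col6a3 (-2.14) and Dcn (-2.80). For Inhba the BPA mean lay under background, and with low values set to it the difference was -0.86, so the fitted size is not a measured one.

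Among cell type markers, those of ES cells lay higher under BPA than in control day8: Pou5f1 (2.92), Nanog (2.42), Sox2 (1.51), Zfp42 (2.73) and Esrrb (2.15). The matrix markers lay lower, Col1a1 (-2.46), Col1a2 (-2.10) and Postn (-5.19), and Postn went in opposite directions, with changes from day 0 of -2.68 under BPA and 2.51 in control day8. Lower values under BPA were also found for the endoderm factor Gata6 (-1.94), the heart muscle genes Tnnt2 (-4.11), Myh6 (-2.37) and Myl7 (-4.38) and the VEGF receptor gene Kdr (-2.94). The lysosomal macrophage marker Cd68 (1.05) and the neuronal tubulin gene Tubb3 (1.54) lay higher.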

How the results depend on the processing

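The counts of genes that changed, rose or fell stayed within 1.5 times their values under all alternatives run. The 1699 genes that changed at least 2-fold became 1097 with 16, and 482 with 64, added to the signal before taking logs, which shrinks low values by construction. Leaving out 1 array at a time gave 3327 to 4477 changed genes, 2186 to 2850 higher, 1117 to 1627 lower and 1466 to 1851 changed at least 2-fold. The share of calls that were higher was 64.6%, and 58.8% after quantile normalization and 56.6% after median centring, both of which moved the median of all genes from 0.14 to 0.06. With the replicate number as a block, 4147 genes changed, 2712 higher, 1435 lower and 1682 at least 2-fold, but the numbers share no known pairing. Calls were followed through the alternatives for 205 named genes, which do not include Thbd and Twist1. Of these 205, 162 were called, and 154 kept the call whichever single array was left out. Under all the other alternatives run, 150 kept it, and 0 reversed. Of the 43 not called, 15 passed under some alternative other than leaving out an array: 10 with a variance trend, 7 with a pseudocount of 64 and 7 with array weights, among them Tubb3 under 9 alternatives and Eomes under 6. Signals near the background of 3.41 have no reliable order.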

Other observations

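The 3 BPA arrays differed among themselves for some mesoderm genes, picked after their values were seen. On arrays 1, 2 and 3, the mesenchymal factor gene Foxf1 read 5.07, 5.48 and 2.28 and Tcf21 read 3.98, 4.35 and 0.88. The embryonic globin genes Hba-x and Hbb-bh1, and Hand2, Kdr, Snai2 and Acta2, were also lowest on array 3. Other mesoderm genes did not share this order. Array 3 was highest for Cdh5 (5.46, 6.17 and 6.58) and Gata1 (4.78, 4.62 and 5.26), and Tnnt2 was lowest on array 2 (5.66, 4.18 and 4.49). Array 3 was the highest for the trophoblast genes Tpbpa (5.53, 6.42 and 8.39) and Ctsj (6.06, 6.12 and 7.58). Neither Foxf1 (0.85 ± 0.84, limma adjusted p 0.47) nor Tcf21 (1.64 ± 1.34, limma adjusted p 0.381) passed against day 0.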
